A study of Mus musculus with 6 samples.

Results

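Heterotrimeric G proteins and their regulators were examined on 6 oligonucleotide arrays of mouse hippocampus. The genes were chosen by symbol, as those whose platform annotation names a Gα, Gβ, Gγ or RGS gene, with Rgs5 and Rgs14 left out by the rule, and where a gene had several probe sets the one with the highest mean stood for it. This gave 38 of the 8251 genes with a probe set of their own. They comprise 14 Gα genes, 5 Gβ genes, 7 Gγ genes, 11 RGS genes and Gnasas1, an antisense RNA of the Gnas locus that the letter pattern also takes in. The study concerns mice that overexpress HuD, an RNA-binding protein of neurons. All 6 samples carry the same description, total RNA of hippocampus, and no label gives a genotype, strain, age, sex or promoter for any of them. They are therefore named by the number in their titles, none is called transgenic or control, and no comparison between genotypes was made. The titles also carry codes, e1 and le1 for samples 1, 3, 4, 5 and 6 but e1 and le2 for sample 2. The labels do not explain these codes. Nothing in the labels says whether a sample is 1 animal or a pool.

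A heterotrimeric G protein relays the signal of a seven-helix receptor. The receptor makes the Gα subunit exchange GDP for GTP, Gα and the Gβγ dimer then act on separate effectors, and the signal ends when Gα hydrolyses its GTP. RGS proteins speed up that hydrolysis and so shorten the signal. Gs raises and Gi lowers cyclic AMP, and Gq and G11 activate phospholipase C beta. In hippocampal neurons, Gi/o proteins carry much of the presynaptic inhibition by GABA-B, adenosine and cannabinoid receptors.

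Values are deposited signal intensities, in arbitrary linear units. Each array was then divided by its own median (59.9 to 63.3 units over the 6 arrays), so that a log2 value of 0 is the array median, and genes whose median over the 6 arrays exceeded 0 were called expressed. The range of a gene is its highest minus its lowest sample on this log2 scale. Detection calls were not used here, so a signal under the array median is not shown to be above background. The level of a probe set is not set against that of another, since probes differ in their response. Of 8 genes fixed as markers of hippocampal neurons, 8 were on the array and 7 were expressed. Summed signals of choroid plexus markers ran from 134 in sample 1 to 2133 in sample 6, those of oligodendrocyte markers from 4721 in sample 1 to 6547 in sample 5, and those of hippocampal neuron markers from 2707 in sample 1 to 4063 in sample 5. Sample 1 had the highest 3' to 5' ratios of the beta-actin (1.27) and Gapdh (0.86) control probe sets, and sample 3 had the highest ratios of the pyruvate carboxylase (3.56) and transferrin receptor (3.47) controls. Their part in the results that follow was not tested. In whole tissue, fewer cells of a type and less RNA per cell cannot be told apart.

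Of the 38 genes, 26 were expressed (68.4%), against 58.6% of all genes. Of these 26, already picked by their median, 25 were above the array median in every sample. The exception was Gnaq. The same share was not counted for all expressed genes, whose median log2 level was lower (1.66, against 2.06 for the 26). The 26 genes were 10 of 14 Gα genes, 3 of 5 Gβ genes, 4 of 7 Gγ genes and 9 of 11 RGS genes. Their levels differed little from sample to sample. The median range of the 26 genes was 0.35, against 0.40 for the 4838 expressed genes, and 14 of the 26 lay under that value. This gap rested on the scaling: with deposited signals left unscaled the medians were 0.40 for the members and 0.39 for all expressed genes, and after quantile normalization both were 0.40. Only Gnaz had a range over 1, that is, a highest sample more than 2 times the lowest (1 of 26, 3.85%, against 4.13% of all expressed genes). A range over 1.5-fold was reached by 4 of 26 (15.4%, against 23.7% of all expressed genes), namely Gnaz, Rgs19, Gng2 and Rgs10. Sample 3 decided this count, which was 1, Gnaz, without it. When the probe sets of a gene were averaged, Rgs19 and Rgs10 were no longer expressed, and the genes over 1.5-fold were Gnaz, Gng2, Gna11 (0.78) and Gnas (0.76).

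**Figure D1:**
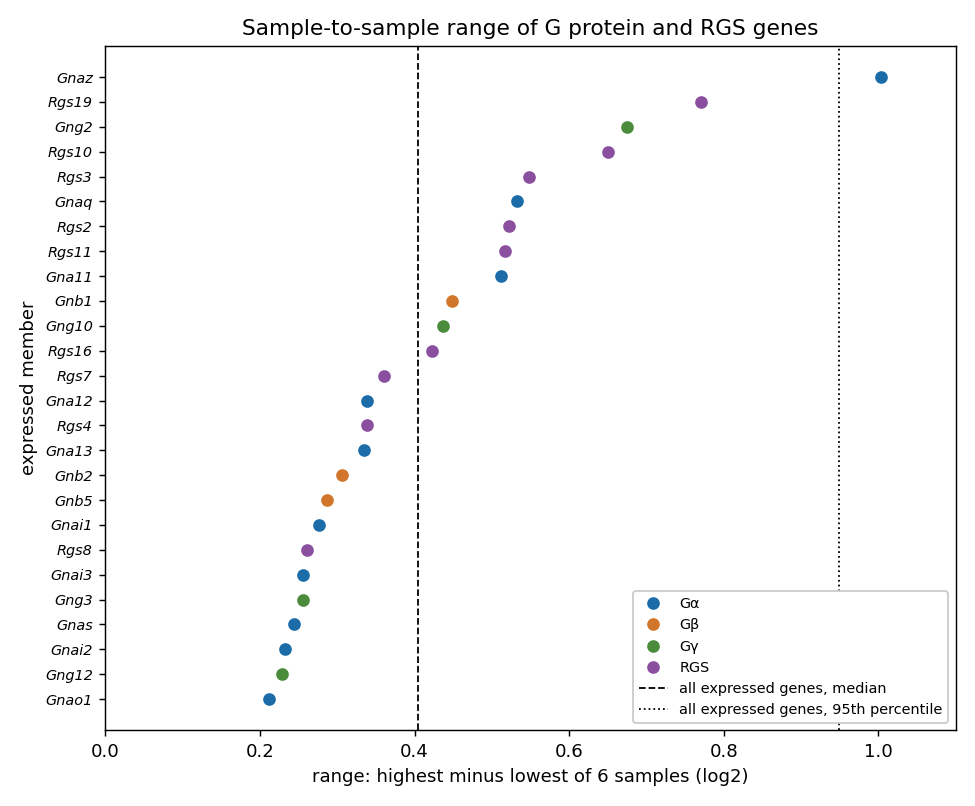
Range over the 6 samples (highest minus lowest, log2 scale) of each of the 26 expressed genes, coloured by protein class, with the median (0.40, dashed) and the 95th percentile (0.95, dotted) of all 4838 expressed genes. Gnaz, at 1.00, is the gene beyond the dotted line, and 14 genes lie left of the dashed line.

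Brighter probe sets ranged less, among these genes as among all genes. For the 7 members with a median log2 level above 3 (Gnas, Gnao1, Gnai1, Gnai2, Gnb1, Gnb2 and Gng3) the median range was 0.25, against 0.30 for the 851 expressed genes in that band. For the 5 members with a level up to 1 (Gnaq, Rgs2, Rgs10, Rgs16 and Rgs19) it was 0.53, against 0.53 for 1386 genes. In the band from 1 to 2 the 7 members had a median range of 0.51, against 0.41 for 1515 genes, and in the band from 2 to 3 the 7 members had 0.34, against 0.34 for 1086 genes. By class, the median range was 0.52 for the RGS genes, 0.31 for Gα, 0.31 for Gβ and 0.35 for Gγ. Differences between classes were not tested.

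The Gs and Gi/o subunits include several of the steadiest genes of the set, as read from the probe sets used. Gng12, a Gγ gene, ranged as little (0.23). Further probe sets of Gnao1, Gnai1 and Gnai2 ranged more, as given below. Gnas, the stimulatory Gα of adenylyl cyclase, had signals of 6632, 7642, 6971, 7515, 7244 and 7864 in samples 1 to 6, a range of 0.24. Sample 1 lay below the others, and without it the range was 0.12. With its 3 probe sets averaged, 2 of them dim, the range was 0.76. The name of this probe set marks probes shared between transcripts, which at this imprinted locus with several promoters means that the transcript forms are not told apart. The locus has 2 further single-gene probe sets, both under the array median in all samples, with signals up to 54.5 and 43.6. Gnasas1, read from the same locus, had signals between 6.55 and 12.3, all at the floor used for scaling. Gnao1, the Go subunit that is the most abundant Gα protein of brain, had 2747, 2578, 2354, 2721, 2696 and 2375 in samples 1 to 6, a range of 0.21 and the smallest of the 26. The values of samples 3 and 6 were the low ones. The 3 inhibitory Gi genes ranged as little. Gnai1 had 780, 854, 851, 832, 830 and 945, lowest in sample 1 and highest in sample 6 (range 0.28). Gnai2 had 2396, 2581, 2572, 2315, 2350 and 2389, with samples 2 and 3 above the rest (range 0.23). Gnai3 ranged by 0.26 (301 to 378), with sample 3 lowest, and by 0.17 without that sample. The name of the Gnai2 probe set marks probes shared within a gene family, and with quantile normalization its range was 0.13.

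Gnaz was the exception among the Gi/o genes. It encodes Gz, an inhibitory subunit of neurons that lacks the pertussis toxin site of its relatives and hydrolyses GTP slowly. Its signals were 185, 363, 274, 244, 267 and 307 in samples 1 to 6, a 2.01-fold range. Sample 1 was lowest and sample 2 highest, each clear of its nearest neighbour, and the other 4 samples lay between 244 and 307. Without sample 1 the range was 0.62, and without sample 2 it was 0.73. With unscaled signals or quantile normalization it was 0.97, just under a doubling. Gnaz has 1 probe set, so no further reading of it was at hand.

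The Gq/11 and G12/13 genes were all expressed where they are known from brain. Gnaq, the Gα of phospholipase C signalling, had 78.5, 60.4, 85.3, 76.6, 87.7 and 63.1 in samples 1 to 6, a range of 0.53. Samples 2 and 6 were near the array median and the others above it. Gna11, its close relative, had 180, 218, 245, 229, 211 and 231, lowest in sample 1 and highest in sample 3, a range of 0.51, or 0.29 without sample 1. Averaged over its probe sets it ranged by 0.78. Gna12, of the G12/13 class, had 215, 219.8, 255, 269, 273 and 243, a range of 0.34, or 0.57 with its probe sets averaged. Samples 1 and 2 were its low ones. Gna13 had 290.4, 258, 219.7, 263, 280 and 283, a range of 0.33. Sample 3 alone was low there, and without it the range was 0.16. Gna14 and Gna15, which signal like Gq in other tissues, stayed under the array median in all samples, at 1.11 to 2.30 and 12.2 to 22.9.

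The Gβ genes covered both kinds of Gβ protein, the conventional ones that pair with Gγ subunits and Gβ5, which pairs with RGS proteins of the R7 family. Gnb2 had 1312, 1374, 1217, 1246, 1143 and 1263 in samples 1 to 6, a range of 0.31. Sample 5 was lowest, and without it the range was 0.19. Gnb1 had 395, 487, 506, 542, 542 and 409, a range of 0.45. Samples 1 and 6 were low together and samples 2 to 5 high. The name of this Gnb1 probe set marks shared probes. Gnb5 had a range of 0.29 (168 to 204, lowest in sample 6). Gnb3, known from retina and taste cells, and Gnb4 stayed under the array median in all samples. Both were lowest in sample 1, at 7.66 and 31.1, with other samples between 24.6 and 46.7 for Gnb3 and between 50.5 and 62.2 for Gnb4.

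Among the Gγ genes, which encode the small lipid-anchored partners of Gβ, Gng2 ranged most. Its signals were 135, 196, 205, 203, 193 and 154 in samples 1 to 6, a 1.60-fold range (0.68 on the log2 scale, or 0.48 without sample 1). As for Gnb1, samples 1 and 6 were low and samples 2 to 5 lay close together. Gng3, a Gγ of neurons, had 2566, 2494, 2443, 2168, 2186 and 2319, a range of 0.25, with samples 4 and 5 the low ones. Gng10 had 356, 402, 421, 485, 419 and 433, with sample 1 lowest and sample 4 highest. Its range was 0.44, or 0.23 without sample 1. Gng12 had 393, 421, 386, 419.9, 402 and 461, a range of 0.23. Sample 6 stood highest, and the range was 0.13 without it and 0.53 with the probe sets averaged. Gng4 and Gngt2, the Gγ of cone photoreceptors, were under the array median in every sample. Gng11, a farnesylated Gγ, was above it in sample 2 only (62.7) and lowest in sample 1 (32.5).

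Promoters are shown for Gng2 and Gnb1 because the proteins are a classical dimer and both probe sets used were low in samples 1 and 6. The other Gnb1 probe sets were highest in sample 1 after scaling, so the likeness rests on the probe set used. Each run is the 250 bases before the RefSeq gene start, on the gene's strand in GRCm38.p6, at chr14:19976694-19976943 (minus strand) for Gng2 and chr4:155491111-155491360 (plus strand) for Gnb1. Capitals mark GC boxes, spelled GGGCGG, along with TATA boxes, spelled TATAAA, and the core of the cyclic AMP response element, spelled TGACG, each searched on both strands, with overlapping matches counted apart.
Gng2: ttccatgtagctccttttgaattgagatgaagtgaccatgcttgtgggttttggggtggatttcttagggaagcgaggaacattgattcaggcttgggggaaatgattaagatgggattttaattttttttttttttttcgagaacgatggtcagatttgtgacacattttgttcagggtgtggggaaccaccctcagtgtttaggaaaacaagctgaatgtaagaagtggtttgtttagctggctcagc
Gnb1: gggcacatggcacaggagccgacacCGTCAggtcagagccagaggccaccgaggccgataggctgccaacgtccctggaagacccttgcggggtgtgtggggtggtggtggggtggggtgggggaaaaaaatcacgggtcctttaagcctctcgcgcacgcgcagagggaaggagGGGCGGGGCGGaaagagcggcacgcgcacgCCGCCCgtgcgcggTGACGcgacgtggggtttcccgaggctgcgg
The Gnb1 run held 3 GC boxes and 2 cyclic AMP cores in 69.2% G and C, and the Gng2 run held none of the 3 motifs in 41.2% G and C, the lowest G and C share among the 39 promoters that RefSeq listed for 29 of the 38 genes. These 250-base windows thus share none of the letters searched. Matches are letters in a window and are not shown to be bound.

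Among the RGS genes, the 4 families by sequence (RZ, R4, R7 and R12) were all represented. Rgs19, an RZ protein also called GAIP that acts on Gi/o and Gz, ranged most, with signals of 125, 129.7, 149, 110.3, 92.2 and 97.6 in samples 1 to 6, a 1.71-fold range. Rgs10, an R12 protein of neurons and microglia, ran much alike, at 127, 121, 143, 114, 95.9 and 102, a 1.57-fold range. For both, sample 3 was highest and samples 5 and 6 were lowest. Without sample 3 the range was 0.53 for Rgs19 and 0.41 for Rgs10, both under 1.5-fold. That of Rgs10 was also under 1.5-fold with unscaled signals (0.57) and without sample 5 (0.55). A further Rgs10 probe set, with a median under the array median, had 56.9, 53.0, 61.6, 47.2, 60.7 and 73.4 in samples 1 to 6. It was highest in sample 6 and lowest in sample 4, and its name marks shared probes. The remaining Rgs10 probe set did not reach the array median in any sample. All 7 expressed microglial markers, of 8 on the array, ranged under 1.5-fold, where 23.7% of all expressed genes ranged over it. The summed signal of the 8 was 1641 to 1842, from sample 1 at the low end to sample 6 at the high end, and the median log2 deviation of the 7 lay between -0.10 in sample 1 and 0.07 in sample 3, with -0.08 in sample 5. Their part in the Rgs10 values was not tested.

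Rgs2 and Rgs4 are the R4 members best known from hippocampal neurons, Rgs2 as an early response gene that acts on Gq and Rgs4 as a GTPase activator of Gi/o and Gq. Rgs2 had 116, 100.3, 89.7, 81.5, 86.2 and 82.7 in samples 1 to 6. Sample 1 stood highest and sample 2 next, and samples 3 to 6 lay within 81.5 to 89.7. The range was 0.52, and 0.34 without sample 1. Rgs4 ranged by 0.34 (123 to 151), with sample 2 highest, and by 0.18 without that sample. Their promoters, 250 bases each as above, lie at chr1:144004150-144004399 for Rgs2 and chr1:169747643-169747892 for Rgs4, both on the minus strand. They are printed because the promoters of these 2 relatives differ in kind.
Rgs2: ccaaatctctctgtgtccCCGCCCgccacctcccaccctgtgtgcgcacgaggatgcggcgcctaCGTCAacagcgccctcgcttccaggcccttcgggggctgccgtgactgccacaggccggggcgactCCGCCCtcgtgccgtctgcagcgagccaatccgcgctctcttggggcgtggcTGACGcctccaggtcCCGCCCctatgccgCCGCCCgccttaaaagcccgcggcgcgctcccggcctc
Rgs4: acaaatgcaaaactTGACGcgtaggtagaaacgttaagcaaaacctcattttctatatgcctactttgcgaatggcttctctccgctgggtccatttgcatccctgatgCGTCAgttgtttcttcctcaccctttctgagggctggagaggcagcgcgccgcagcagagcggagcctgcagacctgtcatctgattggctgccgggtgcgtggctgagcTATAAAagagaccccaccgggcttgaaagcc
The Rgs2 run held 4 GC boxes, 2 cyclic AMP cores and no TATA box, and the Rgs4 run held 1 TATA box, 2 cyclic AMP cores and no GC box. A GC box stood in 18 of the 39 listed promoters, against 32.7% of all 32851 promoters in the table, a TATA box in 8, against 12.4%, and a cyclic AMP core in 8, against 17.8%. The median G and C share was 61.2% in the 39 promoters, against 52.4% in all, and its part in these counts was not tested. Several starts of 1 gene can overlap, so the 39 promoters are not independent.

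The other R4 genes each had 1 sample at the end of the scale. Rgs16 had 118, 122, 114, 159, 126 and 132 in samples 1 to 6, with sample 4 highest, and its range was 0.42, or 0.17 without that sample. Rgs8 ranged by 0.26 (215 to 265), also highest in sample 4, and by 0.12 without it. The name of the Rgs8 probe set marks probes shared within a family. Rgs3, a long R4 protein, had 248.6, 192, 275, 247, 247 and 251, with sample 2 lowest, a range of 0.55. It was 0.24 without sample 2 and 0.35 without sample 3, the highest. Of the R7 family, which needs Gβ5 for stability, Rgs7 had 371, 283, 305, 372, 326 and 307, a range of 0.36, high in samples 1 and 4. Rgs11 had 227, 185, 202, 176, 159 and 165, a range of 0.52, with sample 1 highest and samples 5 and 6 lowest. Gnb5, their shared partner, was highest in samples 1 (204) and 3 (196), as Rgs11 was but Rgs7 was not. In sample 5, where Rgs11 was lowest, Gnb5 had 191. Of all expressed genes, 17.3% were highest in sample 1 and 31.1% in sample 3. Whether these partners vary together was not tested. Rgs6 and Rgs9 stayed under the array median, at 10.3 to 30.0 and 2.79 to 11.3. Rgs9 is the R7 protein of striatum and retina. Of 4 striatal markers on the array 2 were expressed (Penk and Pdyn), against 58.6% of all genes. Their relation to the Rgs9 values was not tested.

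**Figure D2:**
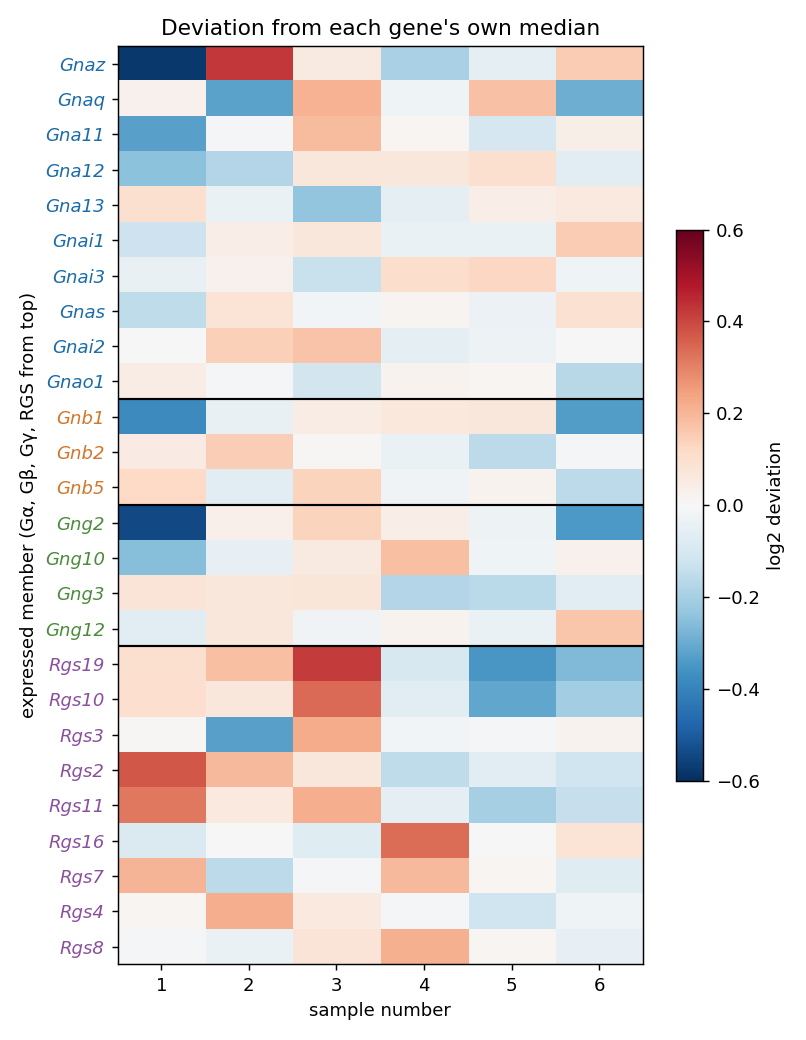
Log2 deviation of each expressed gene from its own median over the 6 samples (columns), with red above and blue below the median and black lines between Gα, Gβ, Gγ and RGS genes. Gnaz, Gng2 and Gnb1 are blue in sample 1, where Rgs2 and Rgs11 are red, and Rgs19 and Rgs10 are red in sample 3 and blue in samples 5 and 6.

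Counted over samples, 10 of the 26 genes had their lowest value after scaling in sample 1 (38.5%, against 21.6% of all expressed genes). These were 9 of the 17 Gα, Gβ and Gγ genes (Gnaz, Gna11, Gna12, Gnai1, Gnas, Gnb1, Gng2, Gng10 and Gng12) and 1 of the 9 RGS genes, Rgs16. Of the 9 RGS genes, 3 were highest in sample 1 (Rgs2, Rgs7 and Rgs11), against 17.3% of all expressed genes. Samples 5 or 6 were lowest for 5 of the 9, against 20.0% and 15.0% of all expressed genes in these samples. The difference between the classes was not tested. The lowest value fell in sample 5 for 5 genes (19.2%, against 20.0% of all expressed genes), in sample 3 for 2 genes (7.69%, against 11.1%), and in samples 2, 4 and 6 for 3 genes each (11.5%, against 11.6%, 20.7% and 15.0%). Sample 3 held the highest value of 8 of the 26 (30.8%, against 31.1%), and sample 1 that of 6 (23.1%, against 17.3%). Samples 2, 4, 5 and 6 held the highest value of 3 genes each (11.5%, against 15.6%, 12.6%, 12.0% and 11.4%). With unscaled signals the lowest count in sample 1 was 8 and the highest count in sample 3 was 5, and with the mean of probe sets the lowest count in sample 1 was 6 of 23, the same as in sample 6. Without sample 1 no sample held the lowest value of more than 8 genes. No gene of the 26 had a sample standing apart by Dixon's criterion (the gap to the nearest value as a share of the whole range), against 5.89% of all expressed genes.

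**Figure D3:**
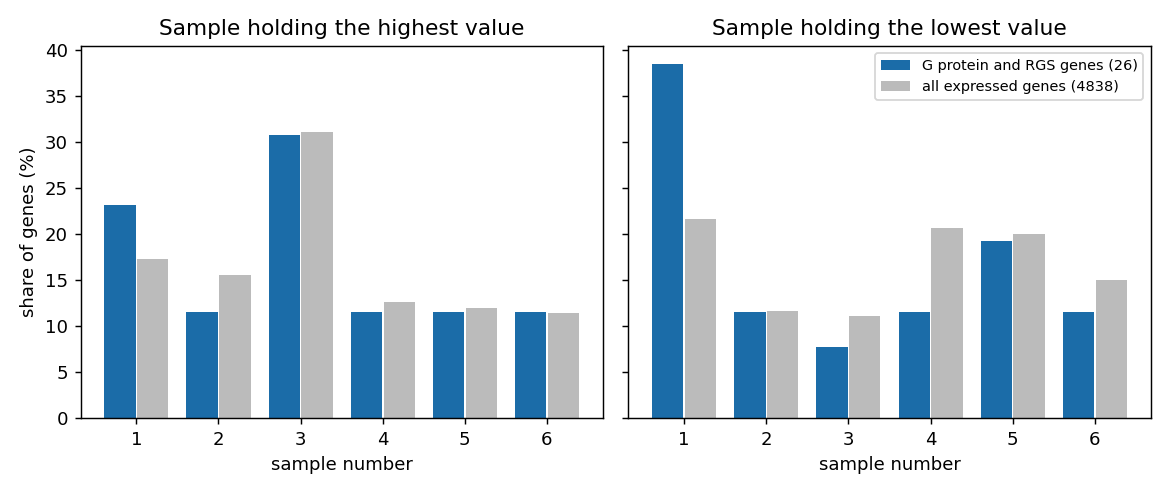
Share of the 26 expressed G protein and RGS genes (blue) and of all 4838 expressed genes (grey) whose highest value (left) or lowest value (right) fell in each sample, in percent. In sample 1 the share of lowest values is 38.5% for the G protein and RGS genes and 21.6% for all, and the sample 3 shares of highest values are 30.8% and 31.1%.

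Probe sets of 1 gene did not always run together. Of the 26 genes, 9 had at least 2 probe sets above the array median, and the dimmer of the top pair had the wider range for 8 of the 9. The top pair shared its lowest sample for 5 genes and its highest for 3, and for 3 genes (Gna13, Gnao1 and Gnb1) 1 probe set was highest where the other was lowest. For Gna11 and Gna12 the pairs ran alike. The other Gna11 probe set had 63.2, 109.5, 124.6, 106.1, 91.4 and 64.3 in samples 1 to 6, again lowest in sample 1 and highest in sample 3, but low in sample 6 as well (range 1.05 against 0.51). The other Gna12 probe set had 83.7, 104, 116, 121, 147 and 109, a range of 0.81, with the same ends as the probe set used. The other Gng12 probe set had 55.4, 99.8, 95.7, 106.9, 107.5 and 98.8, so that sample 1 alone was low (range 0.95 against 0.23).

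For Gnao1 and Gnb1 the choice of probe set decided the picture. The Gnao1 probe set used was highest in sample 1, whereas 3 dimmer ones were lowest there. The first of these had 241.4, 297, 299, 290.4, 323 and 242.6 in samples 1 to 6 (range 0.41), with samples 1 and 6 low together. The second had 166.4, 201, 241, 205, 182 and 211 (range 0.60) and was highest in sample 3. The third had 161.9, 202, 218, 189, 290.2 and 178 (range 0.83), with sample 5 well above the rest. The remaining Gnao1 probe set did not reach the array median in any sample. For Gnb1 the reverse held. The probe set used was lowest in sample 1, and the other 2 were highest there after scaling. One had 284, 205, 254, 199.9, 215.1 and 215.6 in samples 1 to 6 (range 0.52), with samples 1 and 3 high. The other had 103.2, 81.5, 67.9, 86.6, 103.4 and 89.8 (range 0.54), with samples 1 and 5 high and sample 3 low. Whether sample 1 was low thus rested on the probe set for both genes, and the low Gnb1 values in sample 1 are not common to its probe sets. The range of Gnb1 was 0.20 when its probe sets were averaged. For Gnai2 the top pair shared both ends after scaling, highest in sample 3 and lowest in sample 4. Its second probe set had 988, 915, 1046, 763, 919 and 869 in samples 1 to 6 (range 0.53). The third, whose name marks no sharing, had 385, 410.4, 438, 405, 464 and 364 (range 0.35), highest in sample 5 and lowest in sample 6.

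For Gnai1 and Gna13 the other probe sets were both highest in sample 3 and lowest in sample 4 after scaling, which the probe sets used were not. That of Gnai1 had 242, 287, 301, 225, 301 and 262 (range 0.50), with samples 3 and 5 nearly equal. That of Gna13 had 65.4, 67.4, 74.2, 52.5, 58.3 and 67.0 (range 0.58), and samples 4 and 5 lay under the array median. For Rgs19 both probe sets above the array median were lowest in sample 5 after scaling. The other Rgs19 probe set had 97.7, 109, 116, 124, 98.1 and 104, highest in sample 4, with a range of 0.33 against 0.77. Both of these names mark shared or less specific probes. The remaining Rgs19 probe set, whose name marks no sharing, had signals of 3.20 to 16.9. It did not reach the array median in any sample, so that Rgs19 was not expressed when only unshared names were used.

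**Figure D4:**
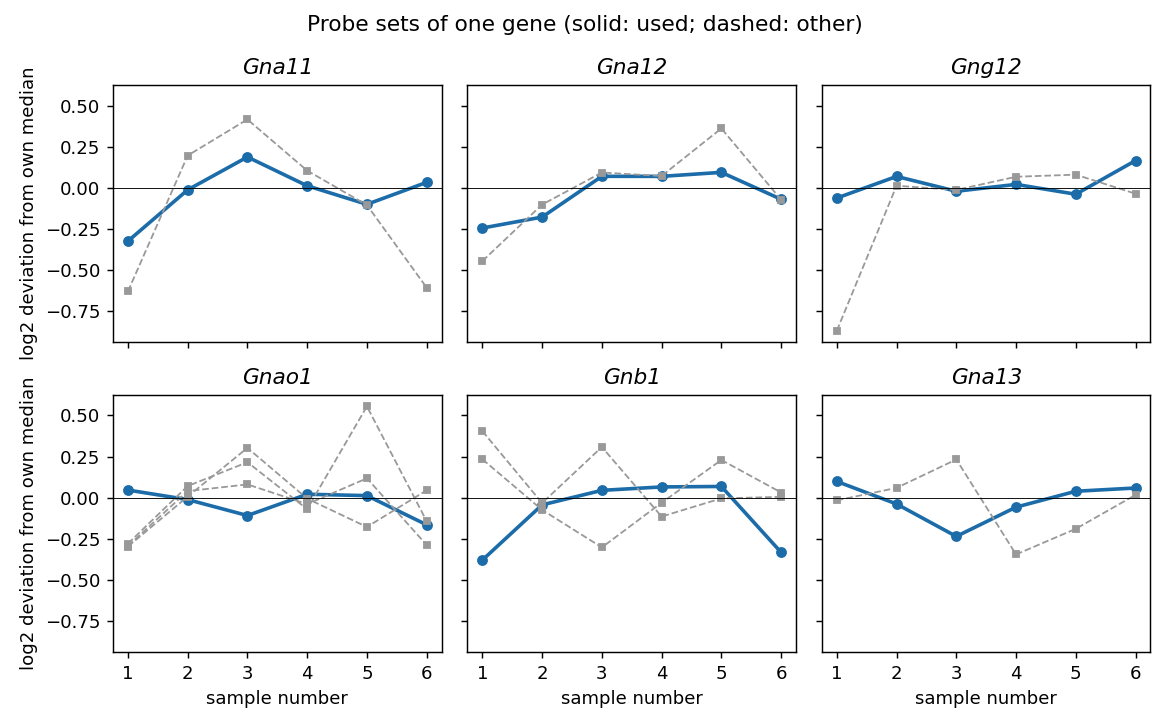
Log2 deviation from its own median of every probe set above the array median, for 6 genes over samples 1 to 6 (the solid line is the probe set used, dashed lines are the others, and lines only join the points of a probe set). The probe sets of Gna11 and Gna12 are all lowest in sample 1, those of Gnao1 and Gnb1 part there, and the dashed Gng12 probe set is low in sample 1 alone.

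Several of the genes lie side by side in the genome. In the RefSeq order of protein-coding genes (GRCm38.p6), 11 pairs of genes with matching symbols are direct neighbours, and both genes were measured here for 5 pairs. In 4 of the 5, 1 gene was expressed and its neighbour was not. Expressed means above the array median, as were 68.4% of the members and 58.6% of all genes. How often other neighbouring genes differ in this way was not counted. Gnaq was expressed and Gna14 was not, Gna11 was and Gna15 was not, and Gnai3 was and Gnat2, the cone transducin, was not. In the pair Rgs9 and Gna13, which are of different families, Gna13 was the expressed gene. Rgs8 and Rgs16 were both expressed, and the probe sets used were both highest in sample 4, as were 12.6% of all expressed genes. The other Rgs16 probe set, under the array median in all samples, was highest in sample 1. Gnat1, the rod transducin, was also under the array median throughout, at 8.80 to 22.4.

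Receptors, effectors and other regulators of the pathway, 99 genes on 3 lists, were read in the same way. Of these, 59 were on the array and 32 were expressed (54.2%, against 58.6% of all genes). A range over 1.5-fold was reached by 5 of the 32 (15.6%, against 23.7% of all expressed genes) and a range over 2-fold by 2 (6.25%, against 4.13%). For receptors 17 of 33 on the array were expressed (51.5%) and 2 of the 17 ranged over 1.5-fold (11.8%), with a median range of 0.42. Lpar1, a lysophosphatidic acid receptor known from oligodendrocytes, had 76.6, 86.1, 142, 123, 128 and 143 in samples 1 to 6, low in samples 1 and 2. Oligodendrocyte marker scores (the median log2 deviation of 7 expressed markers) were -0.28, -0.20, 0.13, 0.18, 0.14 and -0.06 in the same samples. Their part in the Lpar1 result was not tested. Sstr2, a somatostatin receptor coupled to Gi, had 218, 188, 159.8, 143, 169 and 131, highest in sample 1 (range 0.74). Its range was under 1.5-fold with the probe sets averaged (0.48) and without sample 1 (0.55). Htr1a, a Gi-coupled serotonin receptor, ranged by 0.56. Gabbr1, a subunit of the GABA-B receptor, was steady, with a range of 0.23, or 0.14 with quantile normalization.

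For effectors, 9 of 16 were expressed (56.2%), with a median range of 0.43, and 1 of the 9 ranged over 1.5-fold (11.1%). Adcy8, a calcium-stimulated adenylyl cyclase, had 106, 54.4, 81.1, 43.6, 43.0 and 72.0 in samples 1 to 6. The signals of samples 2, 4 and 5 did not reach the array median, and the 2.47-fold range became 1.69-fold with these counted at it. Without sample 1, 3 or 6 its median did not exceed the array median and it was no longer expressed. The calcium channels Cacna1a (range 0.55) and Cacna1b (0.53), which Gβγ inhibits, were both lowest in sample 1 after scaling, as were 21.6% of all expressed genes. The deposited signals of Cacna1a were nearly equal in samples 1 (88.0) and 3 (87.7). Without sample 1 the range of Cacna1b was 0.32. Of the other regulators, 6 of 10 were expressed, with a median range of 0.38, and 2 of the 6 ranged over 1.5-fold (33.3%). Pcp2, a GoLoco protein that binds Gi/o and is best known from Purkinje and bipolar cells, had 238, 213, 72.3, 199, 73.3 and 199.5, low in samples 3 and 5 (3.26-fold range). The name of its probe set marks less specific probes, and the log2 range was 0.87 when its probe sets were averaged. Gap43, a growth cone protein that can activate Go, had 895, 867, 863, 607, 727 and 707, lowest in sample 4. Its range of 0.59, just over 1.5-fold, was under it without sample 4 (0.36), without sample 3 (0.57), with unscaled signals (0.56) and with quantile normalization (0.55). Ric8a, the Gα chaperone and exchange factor, ranged by 0.48.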

How the data were processed

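RNA of 6 mouse hippocampus samples was hybridised to oligonucleotide arrays, 1 each, with 12488 probe sets, 66 of them controls. The authors deposited 1 table of linear signal intensity, with a value for each probe set and array. The sources used here name no scanner, summary method or scaling, but the values show that the mean between the 2nd and 98th percentile is equal on all arrays. Of the 12422 other probe sets, 10833 carry 1 gene symbol in the platform annotation and were used, and 396 with several and 1193 with none were not. All 38 symbols matched RefSeq gene identifiers unchanged. Signals were divided by the array median, floored at 0.2 of it and log2-transformed (Python 3.11.15, numpy 2.4.6, pandas 2.3.3). The range and Dixon statistics were tested on simulated data. No sample has a group, so no difference between groups was tested, Dixon's criterion was used to describe single samples, and the precision is limited by the number of arrays. The members, lists and rules were chosen with earlier results of these data known. Values in all samples are given for members ranging over 1.5-fold, the 2 brightest of each class, and members with a further probe set that is compared. The 3 widest expressed genes of each pathway list are named, and Gabbr1, Lpar1's marker list and other members were named after their values were seen. Alternatives changed the scaling, floor, expression filter, probe set choice and samples.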

Additional observations from a re-analysis of the deposited data

Results flagged for a closer look

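1 of 71 readings examined (58 expressed genes, being the members and the genes of the pathway lists, and 13 further probe sets of members) had a sample standing apart from the other 5 by Dixon's criterion. This was the dimmer probe set of Gng12, with a signal of 55.4 in sample 1 and 95.7, 98.8, 99.8, 106.9 and 107.5 in samples 3, 6, 2, 4 and 5, a log2 range of 0.95. The sample 1 value lay under the array median. The brighter Gng12 probe set had 393 in sample 1 and a range of 0.23. Chance flags about 1 in 20 groups, and the 6 samples are not known to be 1 group.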

How the results depend on the processing

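14 alternatives were run, 6 of which left out 1 sample. No paired analysis was possible because no sample has a group. The number of expressed members stayed within 1.5 times of 26 in all 14, as did their median range (0.30 to 0.35 without 1 sample in turn, up to 0.43 with no expression filter). The number of members with a range over 1 was 0 without scaling and with quantile normalization, 5 with no filter, and 0 to 1 without 1 sample in turn (0 without sample 1 or 2). The number over 1.5-fold was 12 with no filter, 2 with the filter at the 75th percentile, and 1 to 4 without 1 sample (1 without sample 3). The largest count of members highest in 1 sample was 4 with the 75th percentile filter and 8 to 10 without 1 sample. The largest count lowest in 1 sample was 6 with the mean of probe sets and 8 to 11 without 1 sample. Members with a sample standing apart numbered 2 without scaling and 2 with quantile normalization (Rgs3 and Rgs8), 1 with no filter (Gnb4), 1 with the mean of probe sets (Gng12) and 0 to 3 without 1 sample. Pathway genes ranging over 1.5-fold numbered 21 with no filter, 2 with the 75th percentile filter and 3 to 6 without 1 sample. No filter adds dim genes and the stricter one tests fewer; the cause of the other changes was not tested. The range of 5 of 23 expressed members moved over 1.5 times with the mean of probe sets, of 1 of 26 with quantile normalization, and of 1 to 5 of 26 without 1 sample.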
